A study of Homo sapiens with 6 samples.

Results

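The genes described here are 10 classical factors and markers of the epithelial-mesenchymal transition (EMT): the cadherins CDH1 and CDH2, the structural genes VIM and FN1, and the transcription factors ZEB1, ZEB2, SNAI1, SNAI2, TWIST1 and TWIST2. They were chosen by gene name from a table of 26025 genes, and all 10 were listed in it. RNA was sequenced from NCI-H1299 cells, a human line of non-small cell lung cancer, in 3 Ctrl libraries and 3 libraries of cells treated with norepinephrine (NE). All cultures of both groups were first starved in DMEM for 8 to 12 h. They were then kept for 48 h in RPMI-1640 with 2% FBS, with 10 µM NE or with vehicle. The sample records give the vehicle both as DMSO and as PBS. Both groups are the same line with no genetic change made for the comparison, and the records do not say whether the libraries of a group came from separate cultures, so the p-values measure the spread between these libraries. The comparison asked which genes NE, a stress hormone, changed in lung cancer cells.

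EMT is the passage of epithelial cells, which are joined by E-cadherin, to a motile mesenchymal state marked by N-cadherin, vimentin and fibronectin. Transcription factors of the SNAIL, ZEB and TWIST families drive it, and the SNAIL and ZEB factors bind E-box sequences and repress CDH1. In carcinomas the program is often partial, so that its factors and markers need not move together. NCI-H1299 is widely used as a line with mesenchymal features.

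Between 16852751 and 17979206 reads fell on genes in each library. Ctrl replicate 3 stood apart, with 7305 genes at 0 reads, against 3954 to 4833 in the other 5 libraries, and it was the highest Ctrl library for 9 of the 10 EMT genes. Of the epithelial markers, KRT8 and KRT18 had 5726 to 13541 and 7309 to 24051 reads per library, whereas EPCAM had 0 to 5, KRT19 0 to 9 and the lung lineage factor NKX2-1 0 to 4. Of the 8 lung epithelial identity genes in the table, all 3 that were tested fell (KRT7, KRT8 and KRT18), where 25.5% of all genes tested did. Summed over these 8, of which 1 had at most 3 reads in each library, the level was 412 to 555 FPKM in Ctrl and 187 to 203 in NE libraries, and its part in the results was not tested. This sum was nearly all KRT18 and KRT8, at means of 406 and 100 FPKM in Ctrl and 144 and 52.3 in NE libraries. Of 4 immune markers, 2 had at most 3 reads in each library, with sums of 0.0645 to 0.239 FPKM in Ctrl and 0.168 to 0.489 in NE libraries. None of the immune markers passed the minimum mean. For 5 endothelial markers, of which 3 were tested and 0 passed by limma, edgeR, DESeq2 or an unadjusted p under 0.05, the sums were 0.317 to 0.674 and 0.239 to 0.478, with 17 to 37 reads of PECAM1 (log2 fold change -0.06, adjusted p = 0.914 from limma). In bulk RNA a lower level in each cell and fewer cells with a gene cannot be told apart.

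Values are normalized counts, that is, reads on a gene divided by the size factor of its library. FPKM, used to set genes side by side, is reads per kilobase of merged exons, scaled to the same total of reads on genes in each library. The test was limma on log2(value + 1), run for 15013 genes whose mean was 10 or more, and a gene was said to rise or fall at a Benjamini-Hochberg adjusted p under 0.05. Since fold changes ran along GC content over all genes, each call was also run after a GC correction, which removed the trend of each library on the GC content of the exons. Of the 10 EMT genes, 8 passed this minimum, and CDH1 and SNAI1 did not. Among the 8, FN1, ZEB2, SNAI2, CDH2 and ZEB1 rose with NE, TWIST2 and VIM fell, and TWIST1 did not pass the test. Of all genes tested, 24.6% rose and 25.5% fell, so that a call in either direction was made for 50.1% of them. None of the 8 reached the 2-fold cut-off of the study, at which 7.47% of all tested genes rose and 6.55% fell (limma, adjusted p). Their log2 fold changes lay between -0.89 and 0.80, with a median of 0.62 over members of both directions against 0.01 for all genes tested, and of 0.14 against -0.04 after the GC correction. All NE libraries lay above all Ctrl libraries for 4 of the 8, as for 29.7% of genes tested, and below them for 3, as for 28.9%.

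**Figure D1:**
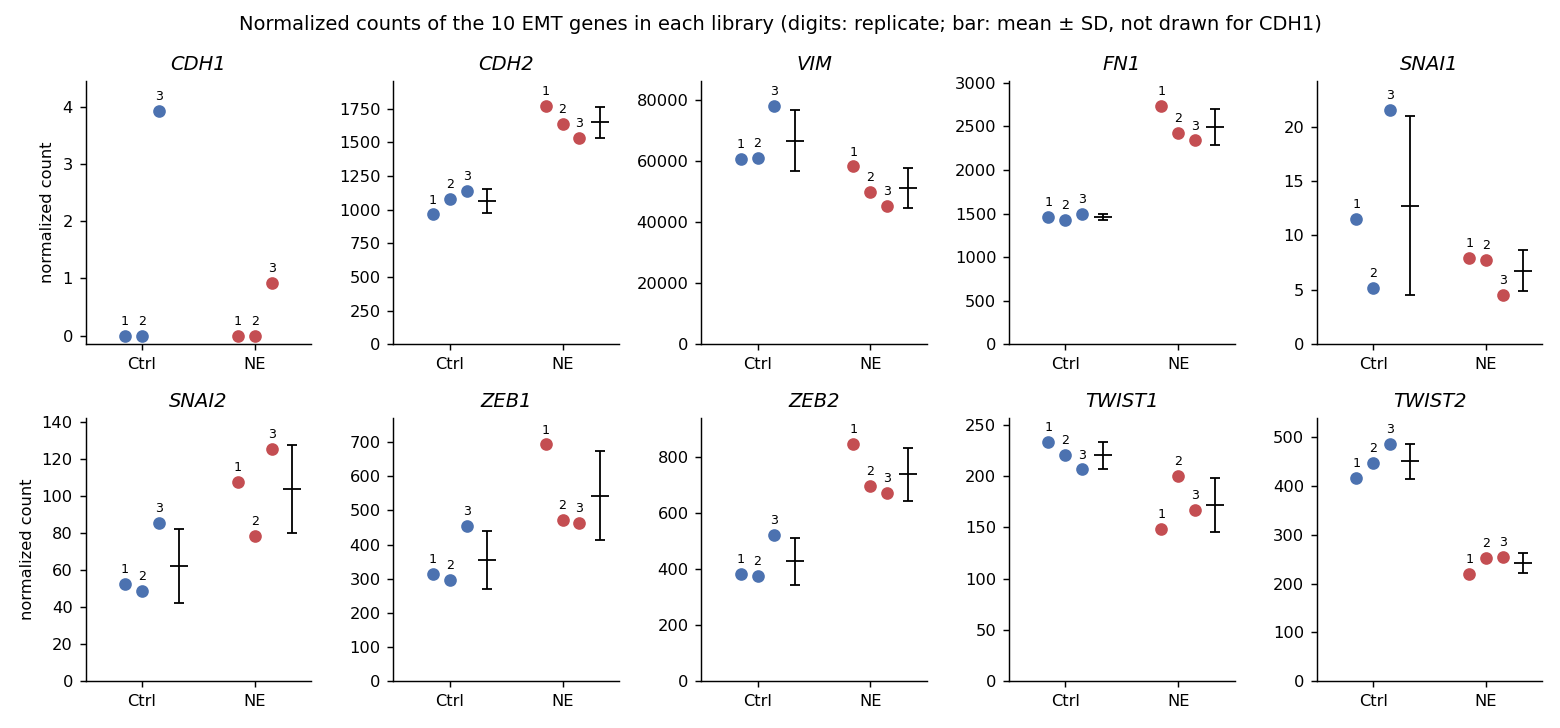
Normalized count (vertical axis, linear, a different scale in each panel) of the 10 EMT genes in the 3 Ctrl (blue) and 3 NE (red) libraries, with the replicate number above each point and the mean ± SD beside it, except for CDH1. The NE libraries lie above all Ctrl libraries for CDH2, FN1, ZEB1 and ZEB2 and below them for VIM, TWIST1 and TWIST2, and overlap with them for SNAI1 and SNAI2.

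The 2 cadherins of the list differed widely in level. CDH1 (ENSG00000039068, chromosome 16, 68737292 to 68835537 on hg38), which encodes E-cadherin, the adhesion molecule of epithelial junctions, had 0, 0 and 4 reads in Ctrl and 0, 0 and 1 in NE libraries. Counts of 0 allow up to 3 reads, or 0.0281 to 0.0293 FPKM in the libraries at 0, so its level was at or near the limit of counting in both groups and no fold was given. Such limits cover counting error only. CDH2 (ENSG00000170558, chromosome 18, 27932879 to 28177946), which encodes N-cadherin, had 964.5, 1077 and 1140 normalized counts in Ctrl and 1770, 1638 and 1534 in NE libraries. The groups were well apart. The mean rose from 1061 ± 88.8 to 1647 ± 118 (SD, n = 3 per group), 1.55-fold, with a log2 fold change ± standard error of 0.64 ± 0.113 (limma, adjusted p = 0.00172). It passed the test with each of the 6 libraries left out in turn, at 0.57 to 0.69 on the log2 scale. CDH2 was at 0.16 after the GC correction and no longer called (adjusted p = 0.188, limma).

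FN1 (ENSG00000115414, chromosome 2, 215360440 to 215436073, minus strand) encodes fibronectin, a matrix glycoprotein to which mesenchymal cells adhere. Its normalized counts were 1458, 1427 and 1500 in Ctrl and 2732, 2424 and 2340 in NE libraries. The Ctrl libraries were close together and all 3 NE libraries lay well above them. The mean rose 1.71-fold, from 1462 ± 36.9 to 2499 ± 206 (SD, n = 3 per group), with a log2 fold change ± standard error of 0.77 ± 0.103 (limma, adjusted p = 0.000458), and it passed the test with each library left out. The 250 bases before its RefSeq start, on GRCh38.p14 at chr2:215436069-215436318, minus strand, are shown because FN1 was the member whose rise held in every fit, and because they hold the cAMP response element (CRE) TGACGTCA, the palindrome bound by the CREB factors that cAMP signaling activates.
FN1: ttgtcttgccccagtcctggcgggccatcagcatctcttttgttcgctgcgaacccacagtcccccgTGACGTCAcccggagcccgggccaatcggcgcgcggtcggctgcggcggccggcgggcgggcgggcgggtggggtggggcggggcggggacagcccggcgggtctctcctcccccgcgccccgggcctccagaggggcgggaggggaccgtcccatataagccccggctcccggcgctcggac
The capitals mark this element, which starts at -183. It was found on either strand in 1.85% of the 35116 RefSeq windows from 250 bases before to 50 bases after a start. No binding was measured here, and the match is a description of the letters.

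VIM (ENSG00000026025, chromosome 10, 17228241 to 17237593) encodes vimentin, the intermediate filament protein of mesenchymal cells, and was by far the highest of the 10 per length. Its mean level was 717 FPKM in Ctrl and 602 in NE-treated cells. Its normalized counts were 60813, 61092 and 78252 in Ctrl and 58317, 49964 and 45300 in NE libraries. The lowest Ctrl and the highest NE library were near each other, and Ctrl replicate 3 was highest. The mean fell from 66719 ± 9989 to 51194 ± 6595 (SD, n = 3 per group), with a log2 fold change ± standard error of -0.38 ± 0.139 (limma, adjusted p = 0.0462). The GC correction put VIM at -0.23, not called (adjusted p = 0.325, limma). The call held in 1 of the 6 uncorrected fits that each left a library out. Without Ctrl replicates 1, 2 and 3 the adjusted p was 0.0604, 0.065 and 0.0603, and without NE replicates 2 and 3 it was 0.129 and 0.143 (limma). With FPKM in place of normalized counts the groups overlapped, at 645.8 to 858.1 in Ctrl and 556.3 to 658.1 in NE libraries.

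The ZEB genes encode zinc finger and homeobox repressors of epithelial genes, and both rose. ZEB2 (ENSG00000169554, chromosome 2, 144364364 to 144521057, minus strand) had 383.3, 375.4 and 523.3 normalized counts in Ctrl and 846.8, 697.3 and 672.5 in NE libraries. The groups did not overlap although Ctrl replicate 3 was above the other Ctrl libraries. The mean was 427 ± 83.2 in Ctrl and 739 ± 94.3 in NE-treated cells (SD, n = 3 per group), with a log2 fold change ± standard error of 0.80 ± 0.162 (limma, adjusted p = 0.00339), the highest of the 8, and it passed with each library left out. The GC correction ended the call of ZEB2, at 0.26 (adjusted p = 0.117, limma). ZEB1 (ENSG00000148516, chromosome 10, 31318495 to 31529814) had 314.2, 296.6 and 453.7 in Ctrl and 693.7, 471.7 and 464.2 in NE libraries. NE replicate 1 stood above the rest, and NE replicate 3 was little higher than Ctrl replicate 3. The mean was 355 ± 86.1 in Ctrl and 543 ± 130.4 in NE-treated cells (SD, n = 3 per group), with a log2 fold change ± standard error of 0.61 ± 0.21 (limma, adjusted p = 0.0354). The adjusted p of ZEB1 was 0.0957 without Ctrl replicate 1, 0.113 without Ctrl replicate 2, 0.14 without NE replicate 1 and 0.0533 without NE replicate 2, and 0.00065 without Ctrl replicate 3 (limma). With GC content corrected ZEB1 was at 0.12 (adjusted p = 0.617, limma). Per length ZEB1 was the higher of the pair, and the ratio of ZEB2 to ZEB1 FPKM, at 0.381 to 0.419 in Ctrl and 0.404 to 0.489 in NE libraries, overlapped between the groups. In normalized counts ZEB2 had the higher mean in both groups. The order per length depends on the merged exon lengths, 26151 bases for ZEB2 and 8650 for ZEB1.
ZEB2: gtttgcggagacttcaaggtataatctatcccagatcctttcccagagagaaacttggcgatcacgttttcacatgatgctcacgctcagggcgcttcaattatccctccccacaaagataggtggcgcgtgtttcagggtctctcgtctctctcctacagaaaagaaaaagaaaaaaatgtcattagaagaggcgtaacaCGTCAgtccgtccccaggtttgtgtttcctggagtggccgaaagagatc
These are the 250 bases before the RefSeq start of ZEB2, at chr2:144520120-144520369 of GRCh38.p14, minus strand, shown for the member with the highest log2 fold change. The capitals mark a short CRE core, TGACG, which stands on the opposite strand at -49 and was found on either strand in 24.6% of all windows. This core was also in 1 of the 2 windows of CDH2 and in 1 of the 7 windows of ZEB1, and in the FN1 window both matches are part of its full element.

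The SNAIL genes encode zinc finger repressors of CDH1 and were the lowest of the 6 factors in reads. SNAI2 (ENSG00000019549, chromosome 8, 48917598 to 48921740), which encodes SLUG, had 52.4, 48.7 and 85.3 normalized counts in Ctrl and 107.7, 78.5 and 125.2 in NE libraries. NE replicate 2 lay below Ctrl replicate 3, so the groups overlapped. The mean was 62.1 ± 20.1 in Ctrl and 104 ± 23.6 in NE-treated cells (SD, n = 3 per group), with a log2 fold change ± standard error of 0.75 ± 0.277 (limma, adjusted p = 0.0477). Its adjusted p was between 0.126 and 0.164 without Ctrl replicate 1, Ctrl replicate 2, NE replicate 1 or NE replicate 3, and 0.0025 without Ctrl replicate 3 (limma). It was also above the threshold, at 0.0547, by edgeR on the recovered reads, and after the GC correction it was at 0.24 (adjusted p = 0.48, limma). SNAI1 (ENSG00000124216, chromosome 20, 49982980 to 49988886), which encodes SNAIL, had 11, 5 and 22 reads in Ctrl and 8, 8 and 5 in NE libraries. With a mean under 10 it was not tested, and without the minimum its log2 fold change was -0.67 with an adjusted p of 0.499 (limma). With each library left out in turn this value ran from -1.15 to -0.22, and the groups overlapped.

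The TWIST genes encode closely related basic helix-loop-helix factors, which bind DNA with E proteins, and here they were the most abundant of the 6 factors per length in Ctrl cells. TWIST2 (ENSG00000233608, chromosome 2, 238848032 to 238910534) had 416.8, 448 and 487 normalized counts in Ctrl and 219.4, 252.8 and 254 in NE libraries. All NE libraries lay far below all Ctrl libraries. The mean fell from 451 ± 35.2 to 242 ± 19.7 (SD, n = 3 per group), with a log2 fold change ± standard error of -0.89 ± 0.134 (limma, adjusted p = 0.000773), the largest change of the 8 in size, and it passed with each library left out. After the GC correction TWIST2 was at -0.47 (adjusted p = 0.0418, limma). It then passed in 1 of the 6 fits that each left a library out. TWIST1 (ENSG00000122691, chromosome 7, 19020991 to 19117636) had 233.5, 220.9 and 206.8 in Ctrl and 148.2, 200.5 and 167.2 in NE libraries. Every NE library was below every Ctrl library, by little for NE replicate 2. The mean was 220 ± 13.4 in Ctrl and 172 ± 26.5 in NE-treated cells (SD, n = 3 per group), and the log2 fold change of -0.37 missed the threshold (95% interval -0.73 to -0.000079 before adjustment, adjusted p = 0.0875 from limma). Without Ctrl replicate 3 it passed, at -0.41 (adjusted p = 0.0407 from limma). The ratio of TWIST2 to TWIST1 FPKM was 1.67, 1.90 and 2.21 in Ctrl and 1.39, 1.18 and 1.42 in NE libraries. The ratios did not overlap, although an exact permutation test of 3 against 3 libraries cannot give a p below 0.1.

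For the member that fell most, the sequence before the start is given next, with no capitals since none of the 4 motifs searched was in its window.

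TWIST2: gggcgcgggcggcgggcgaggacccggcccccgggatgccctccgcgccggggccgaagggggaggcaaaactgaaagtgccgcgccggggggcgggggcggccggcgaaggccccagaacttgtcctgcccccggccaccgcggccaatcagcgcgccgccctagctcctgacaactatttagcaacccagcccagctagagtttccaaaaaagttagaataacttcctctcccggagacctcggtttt
These are the 250 bases before the RefSeq start of TWIST2, at chr2:238847835-238848084 of GRCh38.p14, plus strand, shown as the window of the member that fell most. It held neither form of the CRE nor an E-box (CANNTG on either strand, found in 68.7% of all windows), and it has a GC content of 68.4%, against 76.4% for FN1 and 48.0% for ZEB2. The E-box CACCTG, the form that ZEB and SNAIL factors bind, was in 2 of the 7 windows of ZEB1 and in none of those of CDH2, FN1, VIM, ZEB2 and TWIST2, and in 20.6% of all windows on either strand. Windows were at hand for these 6 of the 10 genes.

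The FPKM of the 6 factors added up to 21.2, 21.3 and 25.2 in Ctrl and 19.1, 20.1 and 20.5 in NE libraries. Ctrl replicate 3 was well above the other Ctrl libraries, which were near the highest NE library, and the sums were not tested. The TWIST pair made up 74.9% to 82.8% of this sum in Ctrl and 54.1% to 66.6% in NE libraries, and TWIST2 alone 50.6% to 54.3% and 31.5% to 36.9%. The ZEB pair made up 12.6% to 16.4% in Ctrl and 24.6% to 34.4% in NE libraries. The SNAIL pair, at 4.62% to 8.72% and 8.66% to 12.6%, overlapped narrowly between the groups. These shares follow from the levels above and were not tested apart. They depend on the merged exon lengths, such as 26151 bases for ZEB2 and 2131 for TWIST2. They are not corrected for GC content, and ZEB1, ZEB2 and SNAI2 were not called once it was.

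**Figure D2:**
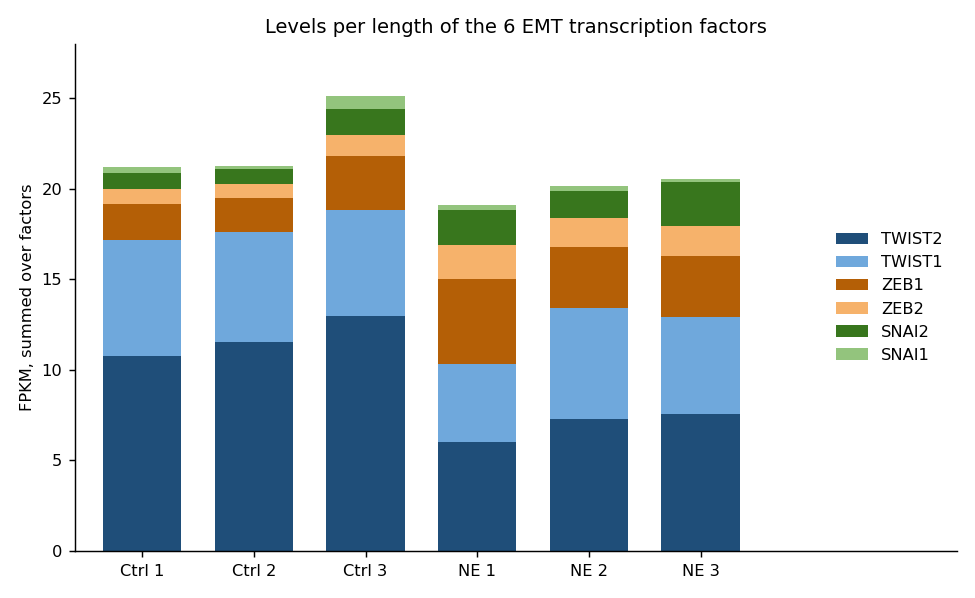
FPKM (vertical axis, linear, from 0) of the 6 EMT transcription factors stacked for each of the 3 Ctrl and 3 NE libraries. The TWIST pair (blue shades) fills 74.9% to 82.8% of the bar in Ctrl and 54.1% to 66.6% in NE libraries.

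Per length the order of the 10 genes in Ctrl cells was VIM at 717 FPKM, TWIST2 at 11.8, CDH2 at 6.87, TWIST1 at 6.12, FN1 at 4.72, ZEB1 at 2.28, SNAI2 at 1.06, ZEB2 at 0.910, SNAI1 at 0.419 and CDH1 at 0.0122. The ranges of CDH2 and TWIST1 overlapped, as did those of SNAI2 and ZEB2. In NE-treated cells CDH2 at 11.7 and FN1 at 8.85 came before TWIST2 at 6.95 and TWIST1 at 5.27, whose ranges overlapped, as did those of TWIST1 and ZEB1 at 3.81 and those of SNAI2 at 1.94 and ZEB2 at 1.72. VIM stayed first at 602 and SNAI1 and CDH1 last at 0.24 and 0.00319. The lengths are those of all annotated exons merged, 26151 bases for ZEB2 and 1705 for SNAI1, so that genes with many exons that the cells do not use are placed too low.

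Across 14955 genes of the same 6 libraries, which are not independent replicates, the log2 fold changes were lower at higher exon GC content (Spearman correlation -0.644). The 5 EMT genes that rose had a GC content of 40.6% to 44.4% in their exons, and VIM, TWIST1 and TWIST2 had 50.3%, 53.4% and 55.5%. The same trend stood within Ctrl cells, at -0.511 for Ctrl replicate 3 minus the mean of the other Ctrl libraries. After the correction FN1 was the one member that rose, at 0.49 on the log2 scale (standard error 0.0884, adjusted p = 0.00244 from limma), and TWIST2 the one that fell, at -0.47 (standard error 0.155, adjusted p = 0.0418). Over all genes 13.0% rose and 19.0% fell in that fit. The other 6 tested members were not called in that fit, and TWIST1 was at -0.03 (adjusted p = 0.895, limma). With each library left out of the corrected fit in turn, FN1 passed in 6 of 6 fits, at 0.43 to 0.53, TWIST2 in 1 of 6, without Ctrl replicate 1, at -0.58 to -0.31, and ZEB2 in 1 of 6, without Ctrl replicate 3. Since the trend also separates the groups, the correction can remove a change made by NE, and these cannot be told apart.

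**Figure D3:**
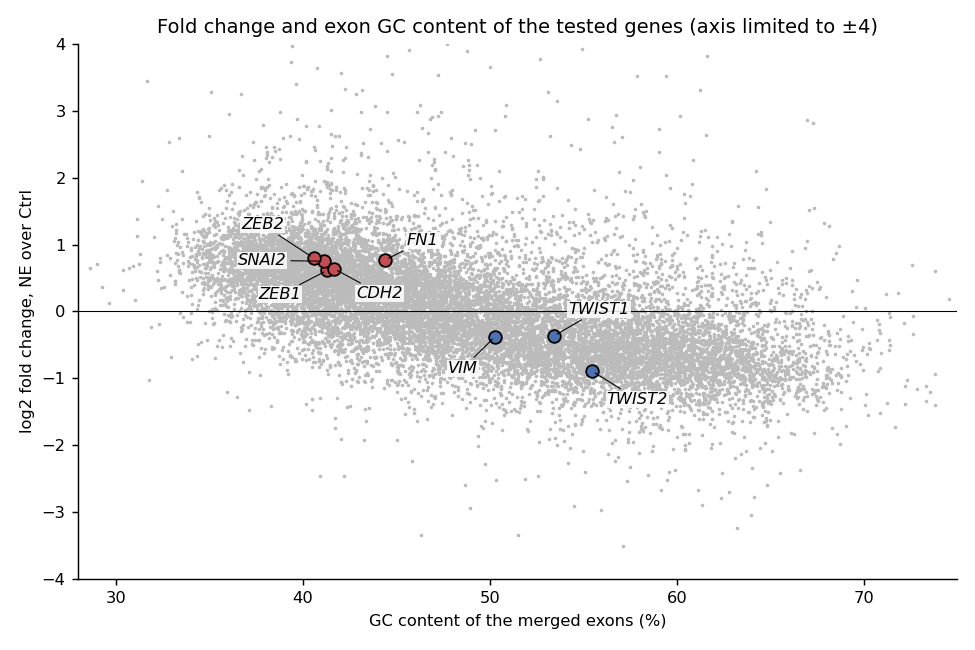
GC content of the merged exons (horizontal axis, percent) against the log2 fold change of NE over Ctrl (vertical axis, shown from -4 to 4) for the tested genes (grey), with the 8 tested EMT genes that were higher (red) or lower (blue) in NE-treated cells. The 5 higher members lie at 40.6% to 44.4% GC and the 3 lower ones at 50.3% to 55.5%, along the slope of all genes.

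**Figure D4:**
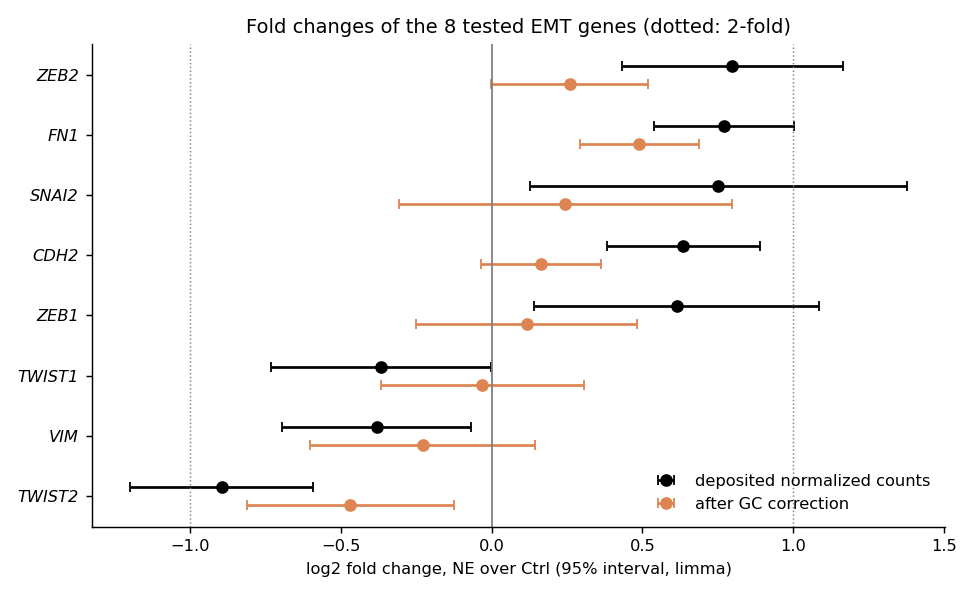
Log2 fold change of NE over Ctrl (horizontal axis) of the 8 tested EMT genes with 95% intervals from limma, from the deposited normalized counts (black) and after removal of each library's trend on GC content (orange), with dotted lines at 2-fold. After the correction the intervals of FN1 and TWIST2 are the ones that leave out 0.

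Several members share exon bases with antisense genes, and the counting is not stated to use strand, so that reads of partners cannot be told apart. VIM-AS1, which shares 656 bases with VIM, had 38.5 to 71.5 normalized counts, and ZEB1-AS1, which shares 396 bases with ZEB1, had 81.7 to 176.4. Neither passed the test. ZEB2-AS1, which shares bases with ZEB2, had 0 normalized counts in 5 libraries and 4.57 in NE replicate 3. The partners AC110015.1 of CDH2 and AC003986.2 of TWIST1 had at most 6.28 and 2.91.

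Other EMT genes were taken from lists of the pathway, drawn up by function. Their counts stand beside those of all genes tested, of which 24.6% rose and 25.5% fell, or 13.0% and 19.0% after the GC correction. Among 19 tested genes of epithelial junctions and surfaces 4 rose, 5 fell and 10 did not pass, shares near those of all genes. CLDN1, a tight junction claudin, rose from 856 ± 293 to 3209 ± 451 normalized counts (SD, n = 3 per group), a log2 fold change of 1.95 (adjusted p = 0.0002 from limma). KRT18 and KRT8, the keratin pair of simple epithelia, fell by 1.62 and 1.06 on the log2 scale (adjusted p = 8.24e-05 and 0.000604, limma). Their relative KRT7 fell by 1.40 from a far lower level (adjusted p = 0.0063, limma). KRT18, KRT8 and KRT7 after the GC correction were at -1.18, -0.62 and -0.90, and KRT7 lost its call when the replicate block (adjusted p = 0.0859, limma) or exon length (adjusted p = 0.0542) was added to that correction. JUP, which encodes plakoglobin, a catenin of junctions and desmosomes, fell by 1.10 (adjusted p = 0.00118, limma). After the GC correction the list had 2 higher and 3 lower, and CLDN1, KRT18, KRT8 and JUP were still called, with JUP at -0.50. With a library left out, 1 to 5 genes of the list were higher, with 1 without Ctrl replicate 1 or NE replicate 1 and 2 without Ctrl replicate 2, NE replicate 2 or NE replicate 3, and 5 to 8 were lower, with 8 without Ctrl replicate 3. Of the epithelial transcription and splicing factors 2 of 5 tested rose and 0 fell by limma. The number that fell was also 0 by edgeR, by DESeq2 and at an unadjusted p under 0.05, and it was 1 without Ctrl replicate 3. Without any other library 1 factor rose. FOXA1, a pioneer factor of endoderm, rose from 9.87 ± 2.65 to 70.2 ± 18.0 normalized counts (SD, n = 3 per group; adjusted p = 0.000379 from limma), which is a low level of 0.124 FPKM in Ctrl.

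Of 26 tested genes of mesenchymal matrix and cytoskeleton 7 rose and 11 fell, where 24.6% and 25.5% of all genes did, and their median log2 fold change was -0.20. MMP14, a membrane-bound matrix metalloproteinase, fell by 2.08 on the log2 scale (adjusted p = 7.63e-05, limma). S100A4 and COL1A1, a calcium-binding protein and a chain of type I collagen, were at -1.55 and -1.26 with few counts and adjusted p of 0.047 and 0.0251, and neither passed after the GC correction, at 0.143 and 0.223 (limma). S100A4 lost its call without Ctrl replicate 2 or 3 or NE replicate 1 or 3, at adjusted p of 0.138, 0.0508, 0.146 and 0.111, and COL1A1 without Ctrl replicate 1 or 2 or NE replicate 1 or 2, at 0.102, 0.0544, 0.0555 and 0.0764 (limma). FBN1, a chain of matrix microfibrils, and NT5E, the surface enzyme CD73, rose by 0.94 and 0.92 on the log2 scale (adjusted p = 0.000964 and 0.000202, limma). After the GC correction 5 were higher and 7 lower. With no correction, 4 were higher without Ctrl replicate 1, and 7 were lower without Ctrl replicate 2 or NE replicate 1.

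Among 13 other transcription factors linked to EMT, 4 rose and 4 fell, near the 24.6% and 25.5% of all genes. TCF4 and TCF12, E proteins that pair with TWIST factors, rose by 1.74 and 1.01 on the log2 scale (adjusted p = 3.52e-05 and 0.000686, limma), TCF4 from 303 ± 33.1 to 1013 ± 29.9 normalized counts (SD, n = 3 per group). ETS1, an ETS family activator of matrix-degrading enzymes, fell by 1.13 (adjusted p = 0.000102, limma). These 3 were also called after the GC correction, at 1.16, 0.57 and -1.47. Of 14 corepressors of EMT factors, 4 rose and 5 fell, against the same shares. SUZ12, a subunit of Polycomb complex PRC2, and SIN3A, a scaffold for histone deacetylases, rose by 0.83 and 0.74, and CTBP1, the corepressor bound by ZEB factors, and DNMT1, the maintenance DNA methyltransferase, fell by 0.71 and 0.70 (adjusted p = 0.00345, 0.000787, 0.000825 and 0.00102, limma). After the GC correction SUZ12 and CTBP1 were at 0.19 and -0.11 and no longer called, and SIN3A and DNMT1 were at 0.45 and -0.33 and still called, with 1 gene of the list higher and 5 lower.

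Of 17 genes that govern the turnover of SNAIL and TWIST proteins, 8 rose and 0 fell by limma, where 24.6% and 25.5% of all genes did, and 4 rose after the GC correction, where 13.0% of all genes did. The number that fell was 0 by edgeR, by DESeq2 and at an unadjusted p under 0.05, 1 without Ctrl replicate 3 and 2 after correction for GC content and length. The list does not separate genes that stabilize these proteins from genes that degrade them, so its count gives no direction of turnover. LATS2, a Hippo kinase that phosphorylates SNAIL, and ATM, the DNA damage kinase that stabilizes ZEB1, rose by 1.27 and 1.05 on the log2 scale (adjusted p = 9.35e-05 and 0.000912, limma). LATS2 was at 1.53 and ATM at 0.42 after the GC correction, and ATM was not called with exon length added (0.25, adjusted p = 0.0743 from limma). Of 16 genes of the TGF-beta pathway, a main inducer of EMT, 7 rose and 5 fell, where 24.6% and 25.5% of all genes did. After the GC correction 6 were higher and 3 lower, against 13.0% and 19.0% of all genes. SMAD6, an inhibitory SMAD, rose by 1.60 and SKIL, a corepressor of SMADs, by 1.01 (adjusted p = 0.00102 and 0.000626, limma). With GC content corrected SMAD6 was at 2.07 and SKIL at 0.30 (adjusted p = 0.0267, limma), and SKIL lost its call with the replicate block added (adjusted p = 0.0642). The ligand TGFB1 fell by 0.81 (adjusted p = 0.000744, limma), but the GC correction left -0.20 (adjusted p = 0.0997). SMURF2, a ubiquitin ligase for SMADs and their receptors, fell by 0.62 (adjusted p = 0.000892, limma) and was at -1.14 after the GC correction. The ligand TGFB3 was higher by 1.15 (adjusted p = 0.0276, limma) and lost its call without NE replicate 1, 2 or 3, at adjusted p of 0.07, 0.0727 and 0.0917. With all libraries TGFB3 was still called after the GC correction, at 1.37 (adjusted p = 0.00998, limma). Of 7 other cadherins and catenins tested, CTNNA1 and CTNNB1, which tie cadherins to actin, rose by 0.67 and 0.54 (adjusted p = 0.000471 and 0.0106, limma), and CTNNBIP1, an inhibitor of beta-catenin, fell by 1.42 (adjusted p = 4.35e-05, limma). CTNNB1 was at 0.02 after the GC correction and no longer called. Of the list 1 gene was lower with all libraries and 2 without Ctrl replicate 3. After the GC correction 1 gene of this list was higher and 2 were lower.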

How the data were processed

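RNA-seq was analysed in 3 Ctrl and 3 NE libraries of NCI-H1299 cells, grouped by the sample titles. Per the submitters' processing notes, HISAT2 2.0.5 mapped the reads to hg38 and featureCounts 1.5.0-p3 counted them, with an annotation release not given in the sources used here. The signal that the authors deposited, described as FPKM, proved to be read counts scaled by a size factor for each library: within 0.05 of a read, 100% of values were whole reads. Depth was 16852751 to 17979206 reads on genes. The EMT genes and the other lists were chosen with earlier results of these data known.

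Differences were tested with limma 3.58.1 (lmFit, eBayes with trend) on log2(value + 1) over 15013 genes with a mean of at least 10, with Benjamini-Hochberg adjustment over all of them. On this scale the change of genes with few counts is understated. Calls needed an adjusted p under 0.05, and the study's 2-fold cut-off was counted apart. No set test was run. All 10 EMT genes were named. From each other list the genes past 2-fold were named, at most 4 in each direction, or else the 2 largest past the adjusted p, and a few identity markers. Exon length and GC content came from GENCODE v44 on hg38, for 99.6% of tested genes, and promoters from RefSeq on GRCh38.p14. For the GC correction a natural spline (5 degrees of freedom) was fitted in each library and subtracted. Alternatives were other pseudocounts, filters and scalings, FPKM, the recovered reads tested with edgeR 4.0.16 or DESeq2 1.42.0, a replicate block, GC and length corrections, and each library left out. Some genes that meet the naming rule are not reported here, and some list genes were not analysed here.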

Additional observations from a re-analysis of the deposited data

How the results depend on the processing

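FN1 rose in every fit run, and CDH2 and ZEB2 in every fit without a GC correction. TWIST2 fell in every fit without one. No member was called at 2-fold in any of them. The corrected fits that each left out a library were chosen after seeing the data. Below, the cause of a change was not tested. CDH1 gave no fold, being at the floor of counting.

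Across genes, the deviations of Ctrl and NE libraries from their group means correlated at -0.163, 0.0799 and -0.151 for numbers 1, 2 and 3. Of 6 libraries, 1 correlated best with its own number. With 3 libraries per group, and Ctrl replicate 3 apart from the rest, this cannot decide whether libraries with the same number were paired. The block left 3150 genes higher and 3358 lower. With the replicate block 1 member fell, and VIM (-0.380, adjusted p = 0.0861 from limma) and ZEB1 (0.614, adjusted p = 0.0661) lost their calls. Without the minimum mean 1 member fell, with VIM at -0.380 and SNAI2 at 0.750 above the threshold. With quantile normalization 1 member fell, with VIM at -0.132 and SNAI2 at 0.683, and with recomputed FPKM 1 fell, with VIM at -0.243 and 517 genes lower at 2-fold. SNAI2 missed the threshold with TMM scaling (0.740) and edgeR (0.728). With an unadjusted p TWIST1 (-0.365) passed. The median of all genes moved to 0.122 without the minimum and to 0.117 with FPKM, and the log2 values there include that shift.

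The GC correction left 1945 genes higher, and 513 higher and 398 lower at 2-fold, with 1 member higher and 1 lower. CDH2 was at 0.163, VIM at -0.228, ZEB1 at 0.117, ZEB2 at 0.259 and SNAI2 at 0.244. With the replicate block added the numbers were 1414 higher and 2156 lower, 438 and 360 at 2-fold, and 1 and 0 members, with TWIST2 at -0.468 (adjusted p = 0.0538 from limma) and the other values as without the block. The GC and length correction gave 1817 higher, 502 and 347 at 2-fold, and 1 and 0 members, with CDH2 at 0.098, VIM at -0.237, ZEB1 at 0.053, ZEB2 at 0.107, SNAI2 at 0.367 and TWIST2 at -0.376, and it reversed TWIST1 (0.065) and CTNNB1 (-0.073). FN1 was at 0.49 with the GC correction and at 0.345 with the GC and length correction (adjusted p = 0.00609 from limma). PECAM1 was at 0.014 with the GC correction, with or without the block.

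With each library left out in turn, 3 to 5 members were higher and 1 to 2 lower, and 777 to 1512 genes were lower at 2-fold, the most without Ctrl replicate 3. CDH2 ran from 0.569 to 0.689, ZEB2 from 0.696 to 0.953 and TWIST2 from -0.949 to -0.825. VIM ran from -0.478 to -0.260, ZEB1 from 0.425 to 0.804, SNAI2 from 0.601 to 0.998, TWIST1 from -0.481 to -0.264 and PECAM1 from -0.316 to 0.237. After the GC correction CDH2 ran from 0.133 to 0.201, VIM from -0.338 to -0.050, ZEB1 from -0.047 to 0.238, ZEB2 from 0.185 to 0.332, SNAI2 from 0.084 to 0.420, TWIST1 from -0.139 to 0.053 and TWIST2 from -0.581 to -0.307. Depth limits CDH1 and SNAI1, whose reads numbered 0 to 4 and 5 to 22.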
